A study of Mus musculus with 33 samples.

Results

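Binding of Gata4, Mef2c and Tbx5 was examined around 8 genes of the heart muscle program: the sarcomere genes Myh6, Myh7, Actc1, Tnnt2, Ttn and Actn2, and the natriuretic peptide genes Nppa and Nppb. The members are all regions of the deposited count table whose start lies in 1 of 6 windows on the mm9 mouse build. The windows run from 200 kb (Actn2) to 480 kb (Ttn), and Myh6 shares a window with Myh7 as Nppa does with Nppb. They held 49 of the 30815 regions in the table. A region is named here by its window and its rank by position in it (Ttn region 6). No gene annotation of the mm9 build was used, so no region was assigned to a gene, an exon, an intron or a promoter, and a window also holds parts of other genes.

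Chromatin immunoprecipitation followed by sequencing (ChIP-seq) was done in fibroblasts under conversion to cardiac cells. All libraries came from 1 line of cardiac fibroblasts from newborn mice of the strain Cd-1, of the genotype alpha-MHC-GFP, immortalised with an excisable large T antigen, that received retroviruses and the inhibitors sb431542 (TGF-beta signalling) and xav939 (Wnt signalling) and were harvested unsorted at day 2. Cells received either the viruses of Gata4, Mef2c and Tbx5 together or the virus of a single factor. "Alone" below means the ChIP of a factor in cells that received its virus only, and "with the others" means the ChIP of that factor in cells that received all 3. With the others there were 6 Gata4, 4 Mef2c and 4 Tbx5 libraries and 6 inputs (chromatin sequenced without precipitation). Alone there were 4 Gata4, 3 Mef2c and 3 Tbx5 libraries, with 1 input for each factor. Replicates are biological ones per the labels, and cells that took up the viruses were not separated from those that did not. Antibody and factor change together (goat antibodies of the same supplier for Gata4 and Tbx5, a rabbit antibody of another for Mef2c), so levels were not compared between factors.

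Of the 3 transcription factors, Gata4 recognises GATA sites through zinc fingers, Mef2c recognises an A/T-rich element through its MADS domain, and Tbx5 recognises T-box elements. In heart muscle these proteins bind promoters and enhancers of contractile and natriuretic peptide genes, often near each other. The sarcomere is the contractile unit of the muscle cell: Myh6 and Myh7 encode the alpha and beta heavy chains of cardiac myosin in the thick filament, Actc1 the cardiac actin of the thin filament, Tnnt2 the cardiac troponin T that anchors the calcium switch on that filament, Ttn the elastic protein titin, and Actn2 the alpha-actinin that crosslinks actin at the Z-disc. Nppa and Nppb encode atrial and B-type natriuretic peptide, hormones released by heart muscle cells. Expression of these genes serves as a readout of cardiac reprogramming.

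The sequences upstream of 3 of the genes are shown because they hold letters that the factors are known to read. They are the 250 bases before the annotated start in RefSeq (GRCm38.p6, so not the build of the counts), printed 5′ to 3′ in the direction of the gene. All 8 genes matched the promoter table, Myh7 and Tnnt2 with 2 start sites each. Searched on both strands were the GATA words AGATAA together with AGATAG, the GATA words TGATAA together with TGATAG, the T-box word AGGTGT, the MEF2 motif and the CArG box of serum response factor. Capitals mark the matches, which did not overlap: in Nppa a T-box match on the opposite strand (ACACCT) and a GATA match, in Nppb a pair of GATA matches, in Ttn a MEF2 match.
Nppa (chr4:148000472-148000721, + strand): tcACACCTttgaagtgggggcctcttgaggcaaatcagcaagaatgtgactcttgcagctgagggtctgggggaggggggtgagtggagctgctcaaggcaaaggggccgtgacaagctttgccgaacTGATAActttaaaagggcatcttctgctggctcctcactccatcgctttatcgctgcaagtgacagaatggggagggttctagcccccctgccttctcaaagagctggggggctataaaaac
Nppb (chr4:147985650-147985899, + strand): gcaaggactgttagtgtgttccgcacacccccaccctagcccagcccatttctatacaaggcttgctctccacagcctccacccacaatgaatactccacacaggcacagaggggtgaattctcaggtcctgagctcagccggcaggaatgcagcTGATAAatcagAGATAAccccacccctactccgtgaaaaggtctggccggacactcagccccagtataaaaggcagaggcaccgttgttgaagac
Ttn (chr2:76982548-76982797, - strand): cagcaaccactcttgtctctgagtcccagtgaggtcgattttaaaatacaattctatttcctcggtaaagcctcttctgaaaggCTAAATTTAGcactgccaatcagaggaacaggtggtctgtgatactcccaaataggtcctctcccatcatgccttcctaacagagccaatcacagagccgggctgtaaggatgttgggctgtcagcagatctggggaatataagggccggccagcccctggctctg
GATA words were also found upstream of Myh6 and of the first start site of Tnnt2, and a CArG box upstream of Actc1. None of the 4 motifs matched upstream of Myh7, Actn2 or the second start site of Tnnt2. Among all 32851 promoter stretches of this length, 26.5% held a GATA word, 11.8% the T-box word, 2.92% the MEF2 motif and 1.47% a CArG box. A match describes the letters only. Because the builds differ, no counted region was placed on these stretches.

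The regions were short (201 to 641 bp, median 237 bp, against a median of 234 bp over the table) and partly clustered. Actc1 had 13, Tnnt2 10, Ttn 10, Nppa/Nppb 7, Actn2 5 and Myh6/Myh7 4. In 5 places, 2 to 4 regions lay under 2000 bp apart, and these held 15 of the 49. Actc1 regions 11 to 13 spanned 876 bp from first to last base, and Ttn regions 6 to 9, the place with the most regions, 3017 bp. Neighbours this close are not independent observations.

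Depth limited precision: library totals over all regions ran from 222761 to 2377616 counts for ChIP and from 97474 to 301678 for inputs, and 1 count equals 0.421 to 4.49 CPM (counts of a region per 1e6 counts over all regions) in a ChIP sample and 1.36 to 10.3 CPM in an input. The counts of Gata4 libraries 1 and 6 with the others showed no detectable difference beyond sampling noise (chi-square p = 0.0785), as did those of inputs 1 and 3 and inputs 2, 4 and 5 of those cells, and each set was counted as 1 sample, which leaves 5 Gata4 samples and 6 inputs. The library labelled Gata4 alone number 4 stood apart. Over all regions its log2 CPM correlated at r = 0.59 with the mean input and at 0.18 with the mean of the other Gata4 alone libraries, whereas libraries 1 to 3 gave 0.32 to 0.35 and 0.85 to 0.87 when each was set against the remaining libraries of the group (across regions, which are not replicates). With the others, Gata4 libraries 1, 3 and 6 also had more Y chromosome signal (138.04 to 209.48 CPM) than libraries 2, 4 and 5 (1.06 to 25.57). Inputs 1, 3 and 6 of those cells likewise had more (37.47 to 43.09 CPM) than inputs 2, 4 and 5 (0 to 10.31). Mef2c and Tbx5 with the others had 11.75 and 11.65 CPM in library 3 and 0 to 1.74 CPM in libraries 2, 4 and 5. Alone, these factors had 5.31 to 18.83 CPM. Gata4 alone had 45.53, 284.25, 259.5 and 17.96 CPM in libraries 1, 2, 3 and 4. The cause of this split was not tested.

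The 49 regions, 0.159% of the table, took a larger share of the counts with the others than alone for each factor. For Gata4 the share was 0.199 ± 0.00685% with the others (SD, n = 5) against 0.127 ± 0.0157% alone (n = 4). It was 0.186 ± 0.0142% (n = 4) against 0.0994 ± 0.00544% (n = 3) for Mef2c, and 0.205 ± 0.00859% (n = 4) against 0.159 ± 0.00937% (n = 3) for Tbx5. The samples of the paired groups did not overlap for any of the 3 factors. Inputs lay between, at 0.17 ± 0.0118% (n = 6). By window, the summed CPM of the Ttn regions was 246 ± 20.9 alone and 495 ± 87.7 with the others for Mef2c, that of Myh6/Myh7 150 ± 11.3 and 407 ± 71.6 for Tbx5, and that of Actc1 331 ± 86.4 and 667 ± 41.1 for Gata4. The mean of the Tnnt2 window was lower with the others for all 3 factors, and that of Nppa/Nppb for Mef2c and Tbx5 (454 ± 36.2 alone and 392 ± 21.6 with the others for Tbx5). These sums were not tested.

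Occupancy of each factor was first set against the 6 input samples, region by region, with edgeR's quasi-likelihood test on TMM-scaled counts of the whole table and Benjamini-Hochberg adjustment over all regions tested (a call is an adjusted p under 0.05). With the others, Gata4 was above input at 16 and below it at 3 of the 36 member regions that passed the filter on low counts, where 29.8% of all tested regions were above and 28.2% below. Mef2c was above input at 17 and below at 11 of 37 (38.2% of all tested regions above, 35.5% below), and Tbx5 above at 21 and below at 6 of 43 (35.4% above, 37% below). Alone, Gata4 was above input at 5 and below at 8 of 28 (23.7% above, 12.8% below), Mef2c above at 12 and below at 23 of 46 (33.6% above, 39.7% below), and Tbx5 above at 14 and below at 12 of 36 (33.4% above, 34.8% below). The shares of members above input with the others were 44.4%, 45.9% and 48.8% for Gata4, Mef2c and Tbx5, and alone 17.9%, 26.1% and 38.9%.

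These counts depend on the scaling. With library totals in place of TMM, the median log2 fold change of all tested regions moved from 0.07 to -0.20 (Gata4), from -0.11 to -0.89 (Mef2c) and from -0.08 to -0.68 (Tbx5) with the others, and from -0.05 to -0.38, from -0.43 to -1.91 and from -0.31 to -0.98 alone. The splits of members above and below then became 8 and 5, 11 and 15, and 14 and 14 with the others, and 3 and 11, 7 and 34, and 9 and 18 alone. Regions above input under both scalings numbered 8 of 16, 11 of 17 and 14 of 21 with the others and 3 of 5, 7 of 12 and 9 of 14 alone. Leaving out an input also moved them: without inputs 1 and 3 the regions above input fell in number to 9 for Gata4 and 11 for Mef2c with the others, 0 for Gata4 alone and 7 for Tbx5 alone, and without inputs 2, 4 and 5 to 4 for Gata4 with the others, 0 for Gata4 alone and 6 for Tbx5 alone. Gata4 alone gave 1 such region without its library 1 or 2, 0 without library 3 and 8 without library 4. At an unadjusted p under 0.05, the edgeR fits with a count of 0 held 0 (without inputs 1 and 3), 2 (without inputs 2, 4 and 5) and 2 (without library 3) such regions, and DESeq2 on all samples called 3. The heatmap of changes against input shows the TMM values.

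**Figure D1:**
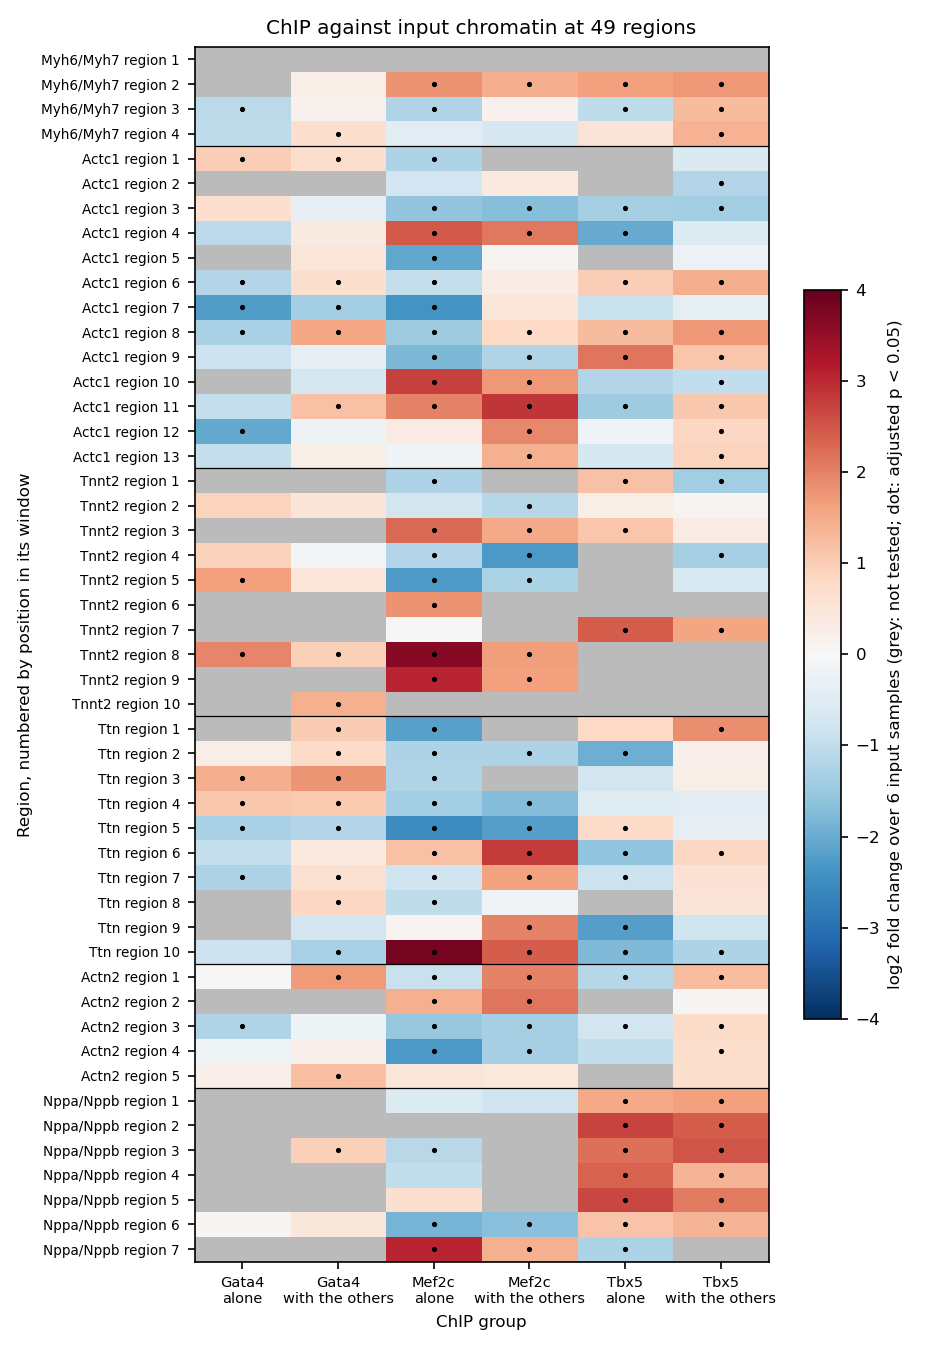
Log2 fold change of each ChIP group (columns) over the 6 input samples for the 49 regions (rows, by window), with TMM scaling; dots mark an adjusted p under 0.05 and grey marks regions that failed the filter on low counts. In the Tbx5 columns Nppa/Nppb regions 1 to 6 are all red with dots. In the column of Mef2c alone the reddest cells are Ttn region 10 and Tnnt2 region 8 (3.84 and 3.64). In that of Mef2c with the others they are Actc1 region 11 and Ttn region 6 (2.86 and 2.80).

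The central comparison set each factor with the others against the same factor alone, which asks how partners in the same cells go with its binding. Gata4 occupancy was higher with the others at 17 and lower at 4 of the 36 member regions tested, against 16.5% higher and 15.2% lower among all 20759 regions tested. Mef2c was higher at 17 and lower at 5 of 32 (31.3% and 28.8% of all tested), and Tbx5 higher at 9 and lower at 6 of 33 (18.8% and 14.9% of all tested). As shares of the members tested, 47.2%, 53.1% and 27.3% were higher and 11.1%, 15.6% and 18.2% lower. The median log2 fold change of the members tested was 0.77 for Gata4, 1.23 for Mef2c and 0.45 for Tbx5, beside -0.00, 0.15 and 0.01 over all tested regions. A region can pass the filter through the group where it is high, so the same fit was also made on all 49 with no filter. It gave 17 higher and 1 lower for Gata4 (11.2% and 10.5% of all regions), 13 and 6 for Mef2c (14.3% and 22.7%) and 10 and 5 for Tbx5 (9.81% and 7.73%). Every sample with the others lay above every sample alone at 11, 24 and 15 of the 49 members (Gata4, Mef2c, Tbx5). Over all regions this held for 7.01%, 29.7% and 14.8%. Every sample with the others lay below at 0, 3 and 7 members (6.24%, 14.2% and 11.4% of all regions). Groups without overlap are thus common in the table.

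Scaling by library totals gave 17 higher and 4 lower for Gata4, 18 and 4 for Mef2c, and 12 and 5 for Tbx5, and moved the median over all regions by more than 0.1 for Mef2c (from 0.15 to 0.47). Leaving out the library labelled Gata4 alone 4 gave 19 higher and 4 lower for Gata4, while leaving out Gata4 alone 1 or 2 gave 10 higher and 0 lower in each case (5 and 3 lower at an unadjusted p under 0.05). Within the set of Gata4 libraries 2, 4 and 5 with the others 8 of 32 tested members were higher and 0 lower. Over all 19399 regions tested there, 1996 were higher and 1852 lower. Within libraries 1, 3 and 6, where 1 and 6 count as 1 sample, it was 13 and 0 of 38. Over all 22571 regions tested there, 1687 were higher and 1177 lower. At an unadjusted p under 0.05 the edgeR fits of the 2 sets held 4 and 0 lower members. DESeq2 on all samples called 4 lower. Each of the 2 sets was compared with all 4 Gata4 alone libraries, which also differed in Y chromosome signal.

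**Figure D2:**
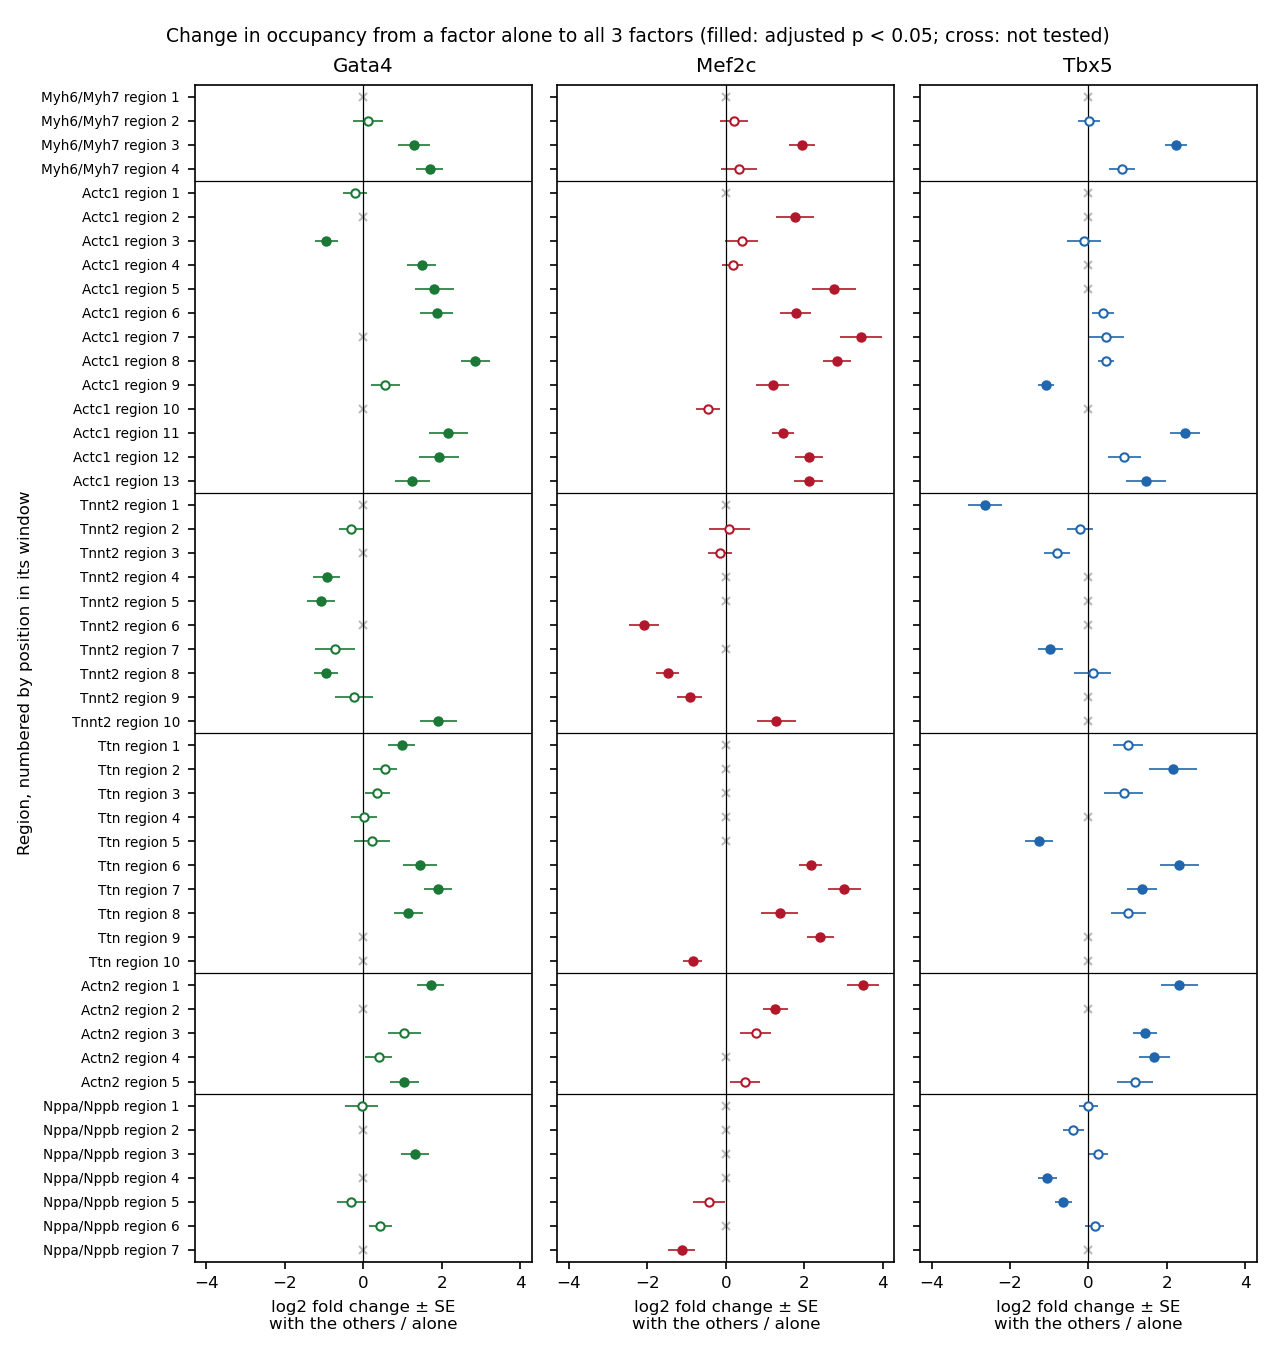
Log2 fold change ± SE of each factor with the others over alone at the 49 regions (rows, by window), in a panel for each factor; filled points have an adjusted p under 0.05 and crosses mark regions not tested. Filled points lie mostly to the right in Actc1, Ttn, Actn2 and Myh6/Myh7, and those of Tnnt2 lie to the left except for Tnnt2 region 10 (1.91 for Gata4 and 1.29 for Mef2c).

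Some gains fell on the same regions. Actn2 region 1, Myh6/Myh7 region 3, Ttn regions 6 and 7 and Actc1 regions 11 and 13 were higher with the others for all 3 factors. Another 6 regions were higher for 2 factors (Tnnt2 region 10, Ttn region 8 and Actc1 regions 5, 6, 8 and 12) and 13 for 1. The shares of all regions higher for all 3, for 2 or for 1 factor were not computed. Whether these counts differ from the rest of the table was therefore not tested. The Gata4 and Mef2c gains shared 12 regions (70.6% of each list), where over all regions the shared gains were 68.6% of the Gata4 and 38.7% of the Mef2c list. The Tbx5 gains shared 6 with either list (66.7% of the Tbx5 gains, 35.3% of the other list). Over all regions the gains shared by Tbx5 and Gata4 were 52.2% of the Tbx5 and 47% of the Gata4 list, and those shared by Tbx5 and Mef2c 69.7% of the Tbx5 and 35.4% of the Mef2c list. With no filter the members shared 10 gains for Gata4 and Mef2c (58.8% and 76.9% of the lists), 7 for Gata4 and Tbx5 (41.2% and 70%) and 6 for Mef2c and Tbx5 (46.2% and 60%). Of the losses, 14 regions were lower for some factor and Tnnt2 region 8 was lower for 2. Shared losses over all regions were 4.57% to 10.5% of a list. Actc1 region 9 was called higher for Mef2c and lower for Tbx5. A further 11 regions had no call for any factor. Across the 49 regions the changes of Gata4 and Mef2c correlated at r = 0.71 (Spearman's rho 0.71), those of Gata4 and Tbx5 at 0.57 (0.63) and those of Mef2c and Tbx5 at 0.48 (0.55). These correlations are a description over regions, some of which are neighbours. All libraries with the others come from cells with the same 3 viruses.

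**Figure D3:**
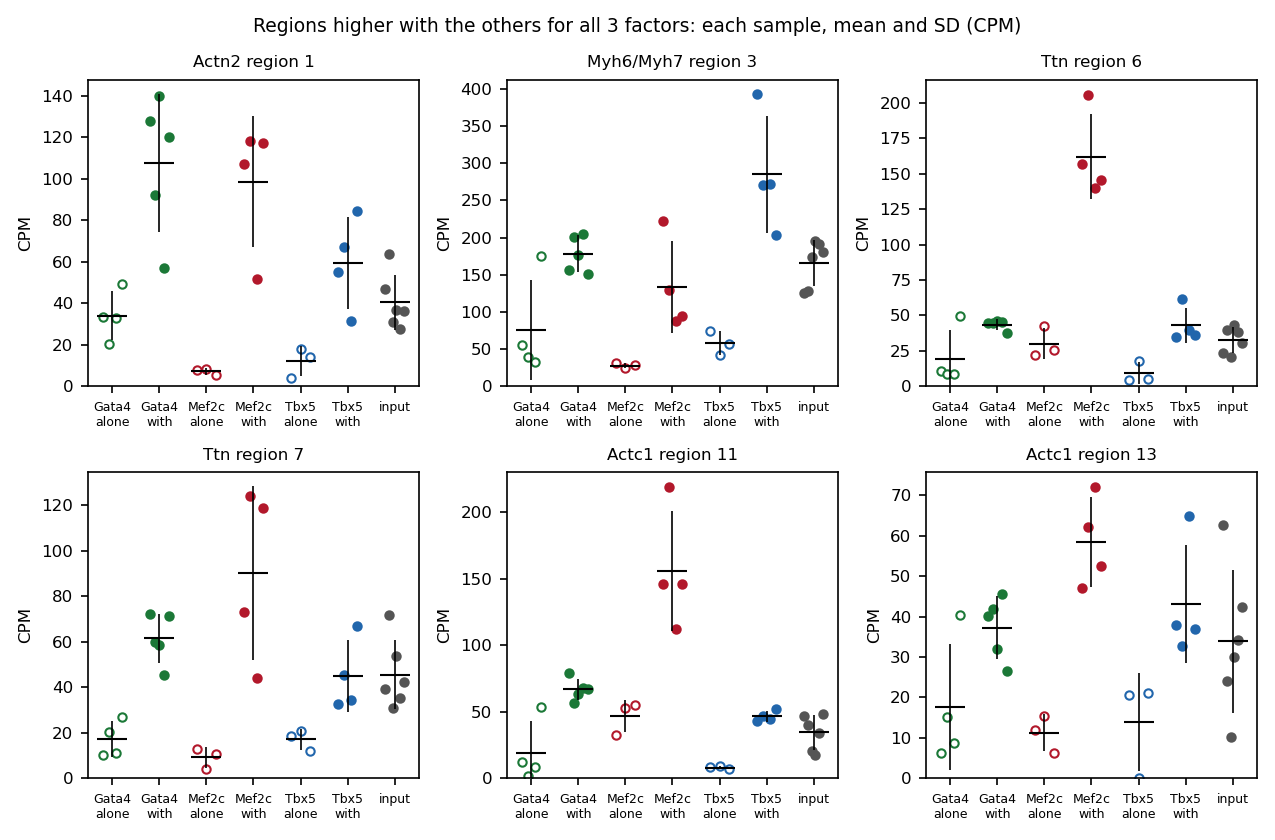
CPM of every sample (points) with group mean and SD (bars) for the 6 regions that were higher with the others for all 3 factors; open points are a factor alone, filled points the factor with the others, grey points the 6 inputs. At Actn2 region 1 the Mef2c samples sit at 5.31 to 8.26 CPM alone and at 51.8 to 118 CPM with the others; at Myh6/Myh7 region 3 and Ttn region 6 one open Gata4 point, from the library labelled Gata4 alone 4, lies at 175 and 49.4 CPM, among or above the filled ones.

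In the window of the myosin heavy chain genes of the thick filament, region 3 (chr14:55586797-55587044) had the highest ChIP level of the 4 regions. Tbx5 gave 74.2, 41.8 and 56.5 CPM alone and 393, 271, 272 and 204 CPM with the others. The groups did not overlap, and the change was 2.23 ± 0.28 on the log2 scale (SE, adjusted p = 0.00011). Mef2c gave 30.5, 23.8 and 28.7 CPM alone and 222, 130, 87.8 and 94.2 CPM with the others, again without overlap (1.94 ± 0.33, adjusted p = 2.3e-05). Gata4 gave 55.9, 38.9, 33 and 175 CPM alone and 156, 201, 177, 205 and 151 CPM with the others. These overlap through Gata4 alone 4 only, and the call (1.29 ± 0.41, adjusted p = 0.0198) was lost without Gata4 alone 1, 2 or 3 or without Gata4 2 with the others (adjusted p from 0.0573 to 0.104). It was also lost within libraries 2, 4 and 5 (adjusted p = 0.0734) and within libraries 1, 3 and 6 (0.142).

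Input itself was high at Myh6/Myh7 region 3, with 125, 178 and 196 CPM as its lowest, median and highest sample. The mean of 166 CPM compares with 10.7 to 87.2 CPM at the other 48 members, and 4 of all 30815 regions had more. Per 100 bp it was 66.9 CPM, against 5.22 to 18.8 at the other members. The cells carry a reporter driven by the alpha myosin heavy chain promoter, and reads from such a transgene and from the endogenous locus cannot be told apart. Whether the region lies in that promoter was not tested. Tbx5 with the others was above input here (1.26 ± 0.19, adjusted p = 1.1e-07), though with every library as its own sample the value fell to 0.36 (adjusted p = 0.057). Gata4 and Mef2c with the others were not called against input (0.17 ± 0.20 and 0.18 ± 0.23), and all 3 factors alone were below it (-1.08, -1.20 and -1.03), for Gata4 with a call lost in 7 of the fits that left out 1 sample (adjusted p from 0.0854 to 0.118). Of the other regions in this window, region 4 was higher with the others for Gata4 (1.69 ± 0.35, adjusted p = 0.00115), region 2 was above input for Mef2c and Tbx5 in both settings, and region 1 passed the filter in no comparison with input or between settings.

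The Actc1 window, around the gene of cardiac actin in the thin filament, had the most gains for Gata4 and Mef2c. There 7 of 10 tested regions were higher with the others for Gata4 and 9 of 12 for Mef2c. For Tbx5 it was 2 of 8, fewer than the 3 of 7 around Ttn and the 3 of 4 around Actn2. In the Actc1 window 1, 0 and 1 regions were lower for Gata4, Mef2c and Tbx5. Region 8 (chr2:113897432-113897990) had the highest ChIP level. Gata4 gave 16.6, 25.4, 28.6 and 53.9 CPM there alone and 272, 198, 204, 165 and 228 CPM with the others. Every sample with the others was above every sample alone, and the change was 2.85 ± 0.37 (adjusted p = 7.93e-05). Mef2c rose from 10.9, 10.3 and 10.6 CPM to 60, 127, 76.8 and 98 CPM (2.84 ± 0.36, adjusted p = 4.44e-07). Tbx5 was already high alone, at 163, 117 and 101 CPM against 153, 192, 200 and 176 CPM with the others, and its change was not called (0.45 ± 0.20, adjusted p = 0.0975). The test of the difference between factors gave 2.42 ± 0.45 for Gata4 against Tbx5 (adjusted p = 0.00104) and 2.05 ± 0.50 for Mef2c against Tbx5 (adjusted p = 0.00438). Both differences were called in all 23 fits that left out 1 sample.

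Against input (39.1, 71.1 and 145 CPM as lowest, median and highest), Actc1 region 8 was above for Tbx5 alone (1.27 ± 0.24) and with the others (1.72 ± 0.24, adjusted p = 2.61e-08). Gata4 was below input alone (-1.31 ± 0.41, adjusted p = 0.0137; 0.0785 without input 6 and 0.0654 without the Mef2c single-factor input) and above it with the others (1.56 ± 0.24, adjusted p = 7.56e-07). For Mef2c with the others the call (0.80 ± 0.29, adjusted p = 0.0153) depended on the scaling: library totals gave 0.05 (adjusted p = 0.872) and DESeq2 0.66 (adjusted p = 0.0809). It was also lost without Mef2c 3 with the others (adjusted p = 0.147), inputs 1 and 3 (0.613), inputs 2, 4 and 5 (0.749) or the Gata4 single-factor input (0.0588). The call for Tbx5 alone was lost without inputs 1 and 3 (0.24, adjusted p = 0.421) or inputs 2, 4 and 5 (0.15, adjusted p = 0.609), and with only the 3 single-factor inputs the value was -0.55 (adjusted p = 0.248).

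The 3 neighbouring Actc1 regions 11 to 13 moved together. Mef2c gave the highest levels at region 11 (chr2:113955982-113956237), with 32.7, 52.7 and 55.2 CPM alone and 146, 219, 112 and 146 CPM with the others (1.46 ± 0.29, adjusted p = 0.000131). With the others it was 2.86 ± 0.28 above input there, the largest Mef2c enrichment among the members. Tbx5 gave 8.24, 8.96 and 7.06 CPM alone and 43.1, 46.6, 44.9 and 52.4 CPM with the others (2.47 ± 0.38, adjusted p = 0.000351), its largest gain. Gata4 gave 12.4, 1.69, 8.8 and 53.9 CPM alone and 78.9, 56.3, 63.7, 68.2 and 66.9 CPM with the others (2.17 ± 0.49, adjusted p = 0.0023). None of these 3 pairs of groups overlapped. At region 12, Gata4 rose by 1.92 ± 0.51 (adjusted p = 0.00646; 0.0619 within libraries 1, 3 and 6) and Mef2c by 2.12 ± 0.35, and Tbx5 was not called (0.92 ± 0.43, adjusted p = 0.107). The Gata4 call at region 13 (adjusted p = 0.0315) was lost in 6 of the 9 fits that left out 1 sample and within either set of libraries (0.109 and 0.101), and the Tbx5 call there (0.0378) in 4 of 7.

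Other Actc1 regions changed for fewer factors. At region 7 Mef2c gave 2.18, 4.13 and 1.06 CPM alone and 54.8, 27.7, 40.7 and 20.2 CPM with the others (3.45 ± 0.53, adjusted p = 5.74e-06), within the range of the inputs (10.3 to 63.9 CPM) and not called against them (0.47 ± 0.35). At region 5 Mef2c rose by 2.76 ± 0.57 (adjusted p = 0.000198) and was not called against input either (0.11 ± 0.36). Region 9 (chr2:113913360-113914000) was the strongest Tbx5 region of the window alone, with 260, 188 and 217 CPM. Tbx5 fell there to 91.3, 134, 117 and 95 CPM with the others (-1.08 ± 0.20, adjusted p = 0.00107) with no overlap, while Mef2c rose by 1.20 ± 0.42 (adjusted p = 0.0167) at levels below input. That Mef2c call was lost with no filter (0.82, adjusted p = 0.145), with DESeq2 (adjusted p = 0.051) and in the fit of all 6 ChIP groups (0.146). Gata4 fell at region 3 (-0.94 ± 0.29, adjusted p = 0.0182), a call lost without Gata4 alone 1 or 2 (adjusted p = 0.096 and 0.0953), with no filter (0.0844), within libraries 2, 4 and 5 (0.065) and within libraries 1, 3 and 6 (0.477).

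Around Tnnt2, the gene of cardiac troponin T, most changes were losses: 3 of 7 tested regions were lower with the others for Gata4, 3 of 6 for Mef2c and 2 of 5 for Tbx5, and the gains called were both at region 10 (Gata4 and Mef2c). Region 8 (chr1:137691095-137691327) was the region lower for 2 factors. Mef2c gave 94.7, 80.6 and 75.4 CPM alone and 18.3, 31.9, 43.6 and 42.5 CPM with the others (-1.48 ± 0.29, adjusted p = 0.000119). The groups did not overlap, and Mef2c was above input in both, by 3.64 ± 0.28 alone and 1.67 ± 0.39 with the others. Gata4 gave 72.4, 79.5, 44 and 31.4 CPM alone and 39.4, 27.5, 30.1, 28.4 and 28.7 CPM with the others (-0.95 ± 0.31, adjusted p = 0.0215). The Gata4 groups overlapped through Gata4 alone 4, and Gata4 was above input alone (1.96 ± 0.41) and with the others (0.95 ± 0.35), the latter with a call lost without Gata4 1 and 6 (adjusted p = 0.0722), inputs 2, 4 and 5 (0.332) or input 6 (0.0583). Tbx5 was low in both settings, at 10.3 to 17.9 CPM alone and 10.5 to 25.4 CPM with the others, within the inputs' range of 0 to 32.2 CPM.

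Gata4 also fell at Tnnt2 regions 5 and 4. At region 5 it gave 68.3, 89.7, 79.2 and 13.5 CPM alone and 33.6, 45.5, 33.6, 17 and 25.5 CPM with the others (-1.08 ± 0.35, adjusted p = 0.0229), and at region 4 the change was -0.93 ± 0.34 (adjusted p = 0.0419). The 3 Gata4 losses of this window were called in neither set of libraries split by Y chromosome counts, and were lost without Gata4 alone 1 (adjusted p from 0.0567 to 0.0938) or 2 (0.127 to 0.259). Those at regions 4 and 8 were lost with no filter as well (adjusted p = 0.0679 and 0.0647). That at region 5 was also lost without Gata4 5 with the others (adjusted p = 0.0525) or Gata4 alone 3 (0.0665), and that at region 4 without Gata4 1 and 6 (0.0573), 2 (0.0923) or 4 (0.0807) with the others. Mef2c fell at region 6, from 31.6, 31 and 34 CPM to 15.7, 3.36, 11.6 and 8.83 CPM (-2.08 ± 0.38, adjusted p = 4.72e-05), and its mean with the others was 9.87 CPM beside 21.5 CPM in the inputs. It also fell at region 9, next to region 8 (-0.92 ± 0.32, adjusted p = 0.017; -0.61 with library totals, adjusted p = 0.0955; 0.0733 without Mef2c 3 with the others and 0.0735 without Mef2c alone 3).

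Tbx5 losses lay elsewhere in the Tnnt2 window. At region 1 Tbx5 gave 41.2, 20.9 and 35.3 CPM alone and 6.89, 4.24, 6.27 and 4.89 CPM with the others, the largest Tbx5 loss (-2.63 ± 0.43, adjusted p = 0.000507), and the groups did not overlap. At region 7, the strongest Tbx5 region of the window (2.41 ± 0.31 above input alone; 1.41, adjusted p = 0.0788, with only the 3 single-factor inputs), the change was -0.97 ± 0.32 (adjusted p = 0.0296), and it was called in 2 of the 7 fits that left out 1 sample (without Tbx5 4 with the others or Tbx5 alone 1; otherwise adjusted p from 0.0759 to 0.148). At the far end of the window, region 10 (chr1:137732646-137732851) was higher for Gata4, from 4.14, 5.08, 19.8 and 4.49 CPM alone to 38.7, 32.3, 47.8, 22.7 and 23.4 CPM (1.91 ± 0.47, adjusted p = 0.00421). The groups did not overlap, and the inputs ran from 7.82 to 18.1 CPM. The call was lost within libraries 2, 4 and 5 (1.61, adjusted p = 0.0781). Mef2c rose at region 10 by 1.29 ± 0.50 (adjusted p = 0.027), with 10.5 to 18.5 CPM, a call lost with no filter (0.91, adjusted p = 0.166), with DESeq2 (0.0804), in the fit of all 6 ChIP groups (0.214) and in 4 of the 7 fits that left out 1 sample.

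**Figure D4:**
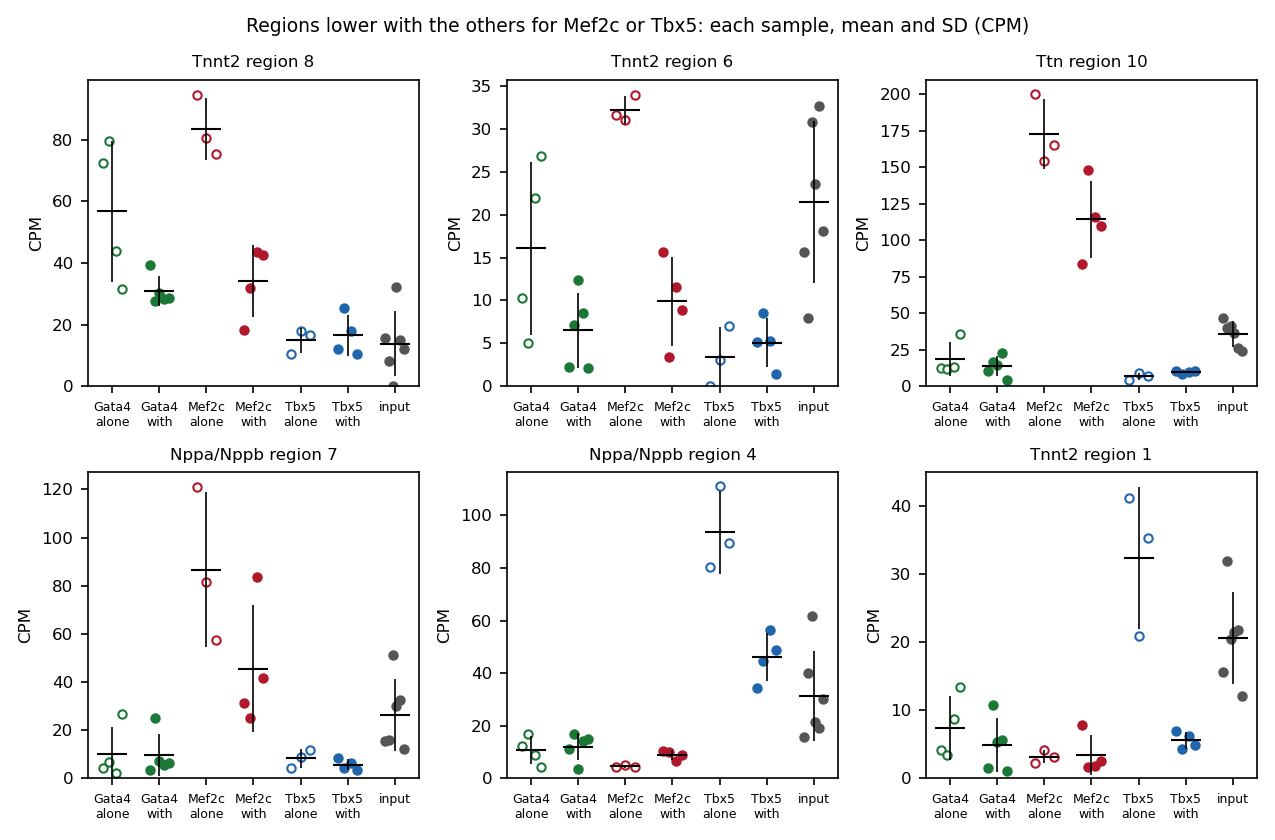
CPM of every sample (points) with group mean and SD (bars) for 6 regions that were lower with the others for Mef2c (top row and bottom left) or Tbx5 (bottom middle and right); open points are a factor alone, filled points the factor with the others, grey points the 6 inputs. At Tnnt2 region 1 the Tbx5 samples alone (20.9 to 41.2 CPM) lie above those with the others (4.24 to 6.89 CPM); at Ttn region 10 Mef2c stays above the inputs in both settings.

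In the Ttn window, around the gene of the elastic protein titin, 4 of 8 tested regions were higher with the others for Gata4, 4 of 5 for Mef2c and 3 of 7 for Tbx5, and Mef2c and Tbx5 were each lower at 1. All the Mef2c gains lay in the cluster of regions 6 to 9. Outside the cluster only region 10, which was lower, passed the filter on low counts in this comparison. The Mef2c call at region 8 was lost with DESeq2 (adjusted p = 0.0609) and with no filter (0.107). It was also lost with the replicate block (0.0811) and in the fit of all 6 ChIP groups (0.115). At region 6 (chr2:76819790-76820050) Mef2c gave 21.8, 42.3 and 25.5 CPM alone and 157, 206, 140 and 146 CPM with the others (2.16 ± 0.30, adjusted p = 1.44e-06). The groups were far apart, and Mef2c with the others was 2.80 ± 0.25 above input (20.5, 34.2 and 43 CPM as lowest, median and highest). Mef2c alone was also called above input there (1.18 ± 0.30), but the value was -0.32 with library totals, and the call was lost without inputs 2, 4 and 5 (0.38, adjusted p = 0.296) or Mef2c alone 2 (0.66, adjusted p = 0.0778).

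Tbx5 at Ttn region 6 gave 4.12, 17.9 and 4.71 CPM alone and 34.5, 61.5, 39.7 and 36.3 CPM with the others (2.32 ± 0.49, adjusted p = 0.00278). Gata4 gave 10.3, 8.46, 8.8 and 49.4 CPM alone and 44.5, 44.3, 46, 45.5 and 37.2 CPM with the others (1.45 ± 0.44, adjusted p = 0.0148). Gata4 alone 4 was above all samples with the others. The Gata4 call was lost without Gata4 alone 1, 2 or 3 (adjusted p from 0.0664 to 0.0886) or within libraries 2, 4 and 5 (0.0857), and Gata4 with the others was not called against input (0.39 ± 0.27).

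At Ttn region 7 (chr2:76821264-76821572) all 3 factors rose. Gata4 gave 10.3, 20.3, 11 and 26.9 CPM alone and 72.3, 59.9, 58.4, 45.5 and 71.2 CPM with the others (1.91 ± 0.35, adjusted p = 0.000561). Mef2c gave 13.1, 4.13 and 10.6 CPM alone and 73.1, 124, 44.2 and 119 CPM with the others (3.02 ± 0.42, adjusted p = 1.83e-06). Tbx5 rose by 1.37 ± 0.39 (adjusted p = 0.0132). None of the groups compared overlapped, and Mef2c alone and Tbx5 alone lay below input (-0.81 and -0.86), as did Gata4 alone (-1.25).

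Ttn region 10 (chr2:76851599-76851814) was the strongest Mef2c region of all members alone. Mef2c gave 200, 154 and 165 CPM alone, 3.84 ± 0.21 above input (adjusted p = 1.85e-36), and 83.5, 148, 116 and 110 CPM with the others (2.41 ± 0.28 above input). The fall was -0.85 ± 0.24 (adjusted p = 0.00318), with no overlap. Ttn region 3 had the largest Gata4 enrichment over input with the others, 1.76 ± 0.30. Alone it was 1.46 ± 0.37 alone (a call lost without inputs 1 and 3, inputs 2, 4 and 5, Gata4 alone 1 or Gata4 alone 3, with adjusted p from 0.0534 to 0.199), and its change between settings was not called (0.36 ± 0.31, adjusted p = 0.396). Tbx5 rose at region 2 (2.15 ± 0.61, adjusted p = 0.014; 0.0603 without Tbx5 alone 1) and fell at region 5 (-1.26 ± 0.36, adjusted p = 0.0146; from 0.0507 to 0.109 without Tbx5 5 with the others, Tbx5 alone 2 or Tbx5 alone 3).

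Around Actn2, the gene of the Z-disc protein alpha-actinin, all the changes called were gains. Of 4 regions tested for each factor, 2 were higher for Gata4, 2 for Mef2c and 3 for Tbx5. At region 1 (chr13:12405925-12406242) Mef2c gave 7.62, 8.26 and 5.31 CPM alone and 107, 118, 51.8 and 117 CPM with the others (3.50 ± 0.40, adjusted p = 9.88e-08), the largest gain of a member for any factor. Gata4 gave 33.1, 20.3, 33 and 49.4 CPM alone and 128, 92.2, 140, 56.8 and 120 CPM with the others (1.72 ± 0.35, adjusted p = 0.00108). Tbx5 gave 4.12, 17.9 and 14.1 CPM alone and 55.1, 66.8, 31.3 and 84.5 CPM with the others (2.32 ± 0.48, adjusted p = 0.00229). The groups did not overlap for any factor. With the others, Gata4, Mef2c and Tbx5 were 1.69 ± 0.27, 1.98 ± 0.30 and 1.22 ± 0.30 above input (27.3, 36.4 and 63.9 CPM), the first 2 also with library totals (for Tbx5 0.63, adjusted p = 0.0551; without inputs 2, 4 and 5 it was 0.73, adjusted p = 0.051). Alone, Gata4 was not called against input (-0.03 ± 0.38), and Mef2c and Tbx5 were below it (-0.89 ± 0.41 and -1.13 ± 0.47), calls that were lost with no filter on low counts (adjusted p = 0.0983 and 0.0667). The Mef2c call was also lost without input 6, the Gata4 or the Mef2c single-factor input or Mef2c alone 3 (adjusted p from 0.0693 to 0.11), and the Tbx5 call without Tbx5 alone 1 (0.0645). Regions 3 and 4 were called higher for Tbx5. Region 2 was called higher for Mef2c (adjusted p = 0.0515 with no filter), and region 5 for Gata4 (0.0646 with no filter).

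In the window of the natriuretic peptide genes, Tbx5 was above input at regions 1 to 6 both alone and with the others. Regions 1 to 5 in the former and 1 to 6 in the latter were called under both scalings. Gata4 with the others was above input at 1 of the 2 regions tested and Mef2c at 1 of 3. The largest Tbx5 enrichment with the others was at region 3 (chr4:147343509-147343838), with 103, 56.8 and 82.4 CPM alone and 93.1, 115, 115 and 82.4 CPM with the others against 0, 26.7 and 51.3 CPM as lowest, median and highest input. It was above input alone (adjusted p = 1.36e-09) and by 2.53 ± 0.29 with the others, and the change between settings was not called (0.25 ± 0.24, adjusted p = 0.426). At region 2 Tbx5 was 2.69 ± 0.37 above input alone and 2.41 ± 0.36 with the others, from 49.4 to 65.9 and from 36 to 48.3 CPM. With only the 3 single-factor inputs, Tbx5 alone was called at none of these regions: regions 2, 3 and 5 gave 1.59, 0.76 and 0.48 (adjusted p = 0.0959, 0.324 and 0.432), and region 6 turned to -0.74 (0.232). Over all regions tested in that fit, 862 of 7330 were above input.

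The changes of Tbx5 called in the Nppa/Nppb window were both losses, at the adjoining regions 4 and 5. Region 4 gave 80.3, 111 and 89.4 CPM alone and 34.5, 44.5, 56.4 and 48.9 CPM with the others (-1.05 ± 0.24, adjusted p = 0.00392), with no overlap. At region 5 it was 92.7, 92.6 and 118 CPM alone and 46.5, 62.5, 79.4 and 77.5 CPM with the others (-0.64 ± 0.22, adjusted p = 0.038), a call lost with DESeq2 (0.0773), library totals (0.0614), no filter (0.095), the fit of all 6 ChIP groups (0.171) and 6 of the 7 fits that left out 1 sample. Both regions stayed above input with the others (1.36 and 2.09). Gata4 rose at region 3, from 8.28, 28.8, 19.8 and 8.98 CPM alone to 50.4, 45.5, 42.5, 39.8 and 44.6 CPM with the others. The groups did not overlap (1.31 ± 0.36, adjusted p = 0.00844; 0.084 without Gata4 alone 1). Its call above input there (0.95, adjusted p = 0.0074) was lost with library totals (0.0525), with every library a sample (0.131), within libraries 2, 4 and 5 (0.225), without inputs 1 and 3 (0.126) and without inputs 2, 4 and 5 (0.0909). Mef2c was above input at region 7 (3.05 ± 0.26 alone and 1.43 ± 0.38 with the others), with 121, 81.6 and 57.4 CPM alone and 31.3, 25.2, 83.7 and 41.6 CPM with the others (-1.13 ± 0.35, adjusted p = 0.00627). These overlapped through Mef2c 4 with the others, and the call was lost without Mef2c alone 1 (adjusted p = 0.0582).

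Whether a change from alone to with the others differed between factors was tested in a single fit of all 6 ChIP groups, where all 49 members were tested. Gata4 and Mef2c changes differed at 2 members (13.5% of all regions), Gata4 and Tbx5 changes at 2 (3.59%) and Mef2c and Tbx5 changes at 5 (13.3%). Beyond Actc1 region 8, Actc1 region 9 differed between Tbx5 and the other factors (1.63 ± 0.46 for Gata4 against Tbx5, adjusted p = 0.0316, and 1.94 ± 0.54 for Mef2c against Tbx5, adjusted p = 0.0115). The former was called in 11 and the latter in 22 of 23 fits that left out 1 sample. At Actc1 region 7 the Mef2c change exceeded that of Tbx5 by 2.63 ± 0.83 (adjusted p = 0.0273, called in 19 of 23), and at Tnnt2 regions 6 and 8 it was lower by 2.90 ± 0.98 and 1.91 ± 0.61 (values of -2.90 and -1.91, adjusted p = 0.0399 and 0.0303, called in 13 and 14 of 23). Gata4 against Mef2c gave -2.40 ± 0.80 at Tnnt2 region 5 (adjusted p = 0.0367, called in 14 of 23) and 1.62 ± 0.51 at Actc1 region 4 (adjusted p = 0.0259, called in 15 of 23). With library totals the splits of higher and lower became 0 and 4 for Gata4 against Mef2c, where they were 1 and 1, and 7 and 0 for Mef2c against Tbx5, where they were 3 and 2. Over all 30663 regions tested the splits also turned, from 2792 and 1350 to 1240 and 3953, and from 1551 and 2519 to 3498 and 1078. The calls at Tnnt2 regions 6 and 8 and at Actc1 region 4 were then lost (adjusted p = 0.136, 0.0799 and 0.103). Same-numbered Gata4 and Tbx5 libraries and Mef2c and Tbx5 libraries with the others deviated together, and a fit with the replicate number as a block gave 6, 3 and 5 members for the 3 differences. Without Gata4 alone 4 the first 2 counts were 6 and 5. Over all 30279 regions tested in the block fit, 4283 were higher and 2824 lower for Gata4 against Mef2c. It was 1414 and 1350 for Gata4 against Tbx5, and 1863 and 3118 for Mef2c against Tbx5.

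The level of a gained region relative to input differed between members. Of the 17 Gata4 gains, 11 were also above input with the others, as were 9 of the 17 Mef2c gains and 7 of the 9 Tbx5 gains (64.7%, 52.9% and 77.8%). Over all gained regions of the table the shares were 55.5%, 46.4% and 65.8%. These shares rest on TMM scaling. With library totals, Myh6/Myh7 region 3 was the only Tbx5 gain still above input. For Mef2c, Actc1 regions 8 and 13 were no longer above input. For Gata4 this held for Myh6/Myh7 region 4, Ttn regions 7 and 8, Actc1 region 6 and Nppa/Nppb region 3. Of the losses, 2 of 4 for Gata4, 5 of 5 for Mef2c and 6 of 6 for Tbx5 were above input alone, beside 42.4%, 91.9% and 80.8% of all lost regions. These counts share libraries with the comparison they describe and were not tested.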

How the data were processed

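The table of counts deposited by the authors gives reads per region for 33 libraries (14 ChIP libraries of cells with all 3 factors, 10 of cells with 1 factor, 9 inputs). Alignment with Bowtie2 2.2.4, featureCounts and the mm9 build are named in the submitters' processing notes. How regions were chosen and duplicates treated is not given in the sources used here. Counts were tested as deposited with edgeR 4.0.16 (R 4.3.3): TMM scaling, regions kept by filterByExpr (minimum count 10), robust quasi-likelihood fits of only the groups compared, Benjamini-Hochberg adjustment over all regions tested, threshold 0.05. The differences between factors came from 1 fit of all 6 ChIP groups. Libraries whose counts showed no detectable difference beyond sampling noise were summed. The ± of a log2 fold change is its SE, and that of a CPM or percent is the SD. The alternatives were DESeq2 1.42.0, library totals, no filter, every library as a sample, sets of libraries, other inputs, a replicate block and leaving out each sample. The edgeR steps were also run on simulated independent counts with known folds in both directions, which cannot test the scaling or the sets of libraries. CPM was computed over the counts of all regions.

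Same-numbered libraries do not share a stated batch. Correlations of their deviations from group means were -0.338 to 0.259 between Gata4 alone and with the others, and exceeded 0.1 for every number only between Gata4 and Tbx5 (0.133 to 0.523) and between Mef2c and Tbx5 (0.256 to 0.615) with the others. The numbers were not used as pairs in the main tests. The main tests of differences between factors thus treated libraries that deviated together as independent. The fit with the replicate block was an alternative to them. P-values measure the spread between biological replicates (per the labels) of 1 cell line. Members, windows and regions shown were chosen with earlier results of these data known. Regions are named where they had the largest changes called in each direction or the highest level in their window; further regions (such as Actc1 region 13, Tnnt2 region 3 and Actn2 regions 2 to 5) are named to complete counts, after their values were seen. With no mm9 annotation used here, other genes of the pathway were not analysed. Promoter sequences are from RefSeq GRCm38.p6.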

Additional observations from a re-analysis of the deposited data

Results flagged for a closer look

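In 8 of the 57 groups of 4 to 6 samples examined, 1 sample stood far from the rest of its group. The cut-off is passed by about 1 in 20 independent groups of normally distributed values. The groups here share libraries, and their regions were named for large values or changes. The 2 rates can therefore not be compared. Among Gata4 alone libraries, number 4 had 175 CPM at Myh6/Myh7 region 3 (the others 33 to 55.9) and 49.4 CPM at Ttn region 6 (the others 8.46 to 10.3), and number 3 had 19.8 CPM at Tnnt2 region 10 (the others 4.14 to 5.08). Among Gata4 samples with the others, the sum of libraries 1 and 6 had 39.4 CPM at Tnnt2 region 8 (the others 27.5 to 30.1), number 5 had 37.2 CPM at Ttn region 6 (44.3 to 46) and number 2 had 40.7 CPM at Ttn region 3 (90.3 to 100). Mef2c 4 with the others had 51.8 CPM at Actn2 region 1 (107 to 118), and Tbx5 3 with the others had 36 CPM at Nppa/Nppb region 2 (46.8 to 48.3).

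The context effect (a factor with the others over that factor alone) differed between factors at some members, by edgeR's quasi-likelihood test of the difference. Gata4 and Mef2c differed at 2 members (4.08%, beside 13.5% of all regions), Gata4 and Tbx5 at 2 (4.08%, beside 3.59%), and Mef2c and Tbx5 at 5 (10.2%, beside 13.3%). The differences on the log2 scale were -2.40 at Tnnt2 region 5 and 1.62 at Actc1 region 4 for Gata4 against Mef2c, and 2.42 at Actc1 region 8 and 1.63 at Actc1 region 9 for Gata4 against Tbx5. For Mef2c against Tbx5 they were -2.90 at Tnnt2 region 6, -1.91 at Tnnt2 region 8, 2.63 at Actc1 region 7, 2.05 at Actc1 region 8 and 1.94 at Actc1 region 9.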

How the results depend on the processing

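Counts of members called with the others against alone ran from 10 to 23 for Gata4 (21 with all samples), 17 to 22 for Mef2c (22) and 11 to 19 for Tbx5 (15) when 1 sample was left out. For Gata4 they were 8 of 32 tested with libraries 2, 4 and 5 and 13 of 38 with libraries 1, 3 and 6. With the replicate number as a block they were 14, 20 and 16, and the loss of Mef2c at Ttn region 10 became -0.75 (adjusted p = 0.0517); the numbers do not pair these samples. Members above input, leaving out 1 sample, ran from 4 to 18, 11 to 17 and 14 to 23 with the others and from 0 to 8, 8 to 12 and 6 to 14 alone (Gata4, Mef2c, Tbx5). DESeq2 gave 9 for Gata4 with the others and 3 alone. Library totals gave 8 and 11 for Gata4 and Mef2c with the others and 3, 7 and 9 alone. With every library a sample, the counts were 5, 11 and 6 of 25, 22 and 21 members tested with the others. Over all regions they were 2982 of 12267, 4708 of 11702 and 4595 of 11780. Alone they were 2 of 11 for Gata4 and 8 of 17 for Tbx5 (2684 of 9584 and 5039 of 12190 over all regions). Libraries 2, 4 and 5 gave 5 of 28 (Gata4, 2448 of 18646 over all regions) and 11 of 25 (Mef2c, 5756 of 18953). Libraries 1, 3 and 6 gave 3 of 12 (Gata4, 1260 of 5912). The replicate block with inputs of the same cells gave 4 of 26 (Gata4, 2165 of 12254) and 9 of 23 (Tbx5, 4989 of 13741). Fewer members passed the filter in these fits than in the main ones, so a count can fall without a lower share. With only the 3 single-factor inputs Gata4 and Tbx5 alone had 0 by edgeR, beside 1 and 2 at an unadjusted p under 0.05, with 9 and 12 members tested. Over all regions tested in these fits, 0 of 8439 and 862 of 7330 were above input. The Gata4 fit thus called no region of the table above input, member or not. Differences between factors ran from 0 to 6, 1 to 5 and 2 to 5 members leaving out 1 sample. Gata4 against Mef2c gave 4 with library totals and 6 with the replicate block, and Gata4 against Tbx5 gave 1 with every library a sample. Over all regions these fits called 1240 higher and 3953 lower of 30663, 4283 and 2824 of 30279, and 752 and 377 of 30279. Signs turned against input at Myh6/Myh7 region 3 for Gata4 with the others (0.17; -0.38 with every library, -0.68 with libraries 1, 3 and 6, -0.63 with the block) and Mef2c with the others (0.18; -0.58 with totals, -0.70 with every library, -0.75 with the block), at Ttn region 6 for Mef2c alone (1.18; -0.32 with totals) and Tbx5 with the others (0.82; -0.10 with the block), and at Actc1 region 8 for Tbx5 alone (1.27; -0.55 with the single-factor inputs). The cause was not tested. Shallow inputs limit what can be called against input.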
